A study of Mus musculus with 32 samples.

Results

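The genes described here are 8 members of the SLAM receptor system of lymphocytes, taken by name from a table of 36047 mouse genes. They are the receptors Slamf1, Slamf6, Slamf7, Ly9 and Cd84, the membrane-anchored ligand Cd48, and the adaptors Sh2d1a (SAP) and Sh2d2a (TSAd). RNA was sequenced from T cells sorted by flow cytometry from the liver and spleen of male C57BL/6 mice that carry the Foxp3GFP allele. Regulatory T cells (Treg) were sorted as TCRb+CD4+Foxp3+ cells and conventional T cells (Tconv) as TCRb+CD4+ cells that lacked Foxp3. They came from mice given carbon tetrachloride (CCl4), a liver toxin, or from control mice. The 8 groups were CCl4 and control liver Treg, CCl4 and control liver Tconv, CCl4 and control spleen Treg, and CCl4 and control spleen Tconv, with 5 CCl4 and 3 control libraries in each population. The sources used here give no dose, duration or age, and every group carries the Foxp3GFP allele. Nothing in the labels says that libraries of a group came from separate animals, so p-values measure the spread between these libraries, which may be technical.

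SLAM receptors sit on the surface of T cells, B cells and other blood cells, and most of them bind a copy of themselves on a neighbouring cell. Tyrosines in their cytoplasmic tails recruit SAP, a small adaptor made of little more than an SH2 domain, which brings in the kinase Fyn. Without SAP the same tyrosines can recruit inhibitory phosphatases. In mice the pathway is needed for the development of natural killer T (NKT) cells and for stable contacts between follicular helper T cells and B cells. Slamf7 and Cd48 stand apart within the family: Slamf7 signals mainly through the SAP relative EAT-2, and Cd48 is anchored by a lipid, has no cytoplasmic tail, and serves as the ligand of Cd2 and of the receptor 2B4. TSAd also carries an SH2 domain, binds the kinase Lck, and belongs to a different adaptor family from SAP.

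The tyrosine motif that binds SAP is coded by a threonine codon, any codon, a tyrosine codon, any 2 codons, and a valine or isoleucine codon. A search of the annotated coding sequences (GENCODE M21, GRCm38) for this pattern gave the stretches below, shown because they match it. Each is printed 5′ to 3′ on the coding strand as 30 bases, and capitals mark the codons for threonine, tyrosine and the closing valine or isoleucine. All of them lie in coding exons on chromosome 1.
Slamf1, motif 1, chr1:171792333-171792362, plus strand: agccttACTattTATgcccaaGTAcagaaa
Slamf1, motif 2, chr1:171799582-171799611, plus strand: cccaccACAgttTATgccagtGTGacactg
Slamf6, motif 1, chr1:171939431-171939460, plus strand: gggaacACTgtgTATgcacaaGTCactcgt
Slamf6, motif 2, chr1:171941658-171941687, plus strand: tccatgACAattTACtccataGTTaatcat
Ly9, motif 1, chr1:171593906-171593935, minus strand: gcaatcACTccaTATgataaaGTGgatggg
Ly9, motif 2, chr1:171593432-171593461, minus strand: tcaaatACAatcTACtgctctGTGcagaag
Cd84, motif 1, chr1:171884599-171884628, plus strand: aagaaaACAgtaTATgctgtaGTTtcaaga
Cd84, motif 2, chr1:171885595-171885624, plus strand: gtgaccACCattTATtcctcaGTGcagctt
Slamf7, chr1:171636321-171636350, minus strand: ccaaacACAtttTATtccactGTGcagatc

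The main transcripts of Slamf1, Ly9 and Cd84 hold 2 such motifs and that of Slamf7 holds 1. Slamf6 transcripts differ: Slamf6-201 and Slamf6-207 code for both motifs, in proteins of 331 and 351 residues, whereas Slamf6-204 codes for 327 residues and for motif 1 alone. The pattern also matched once in Cd48, starting at residue 105 of 240, which is not a cytoplasmic site because Cd48 has no tail. Neither adaptor matched. These are matches of letters in the annotation and were not tested as binding sites.

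The 6 SLAM genes lie side by side on chromosome 1 of GRCm38. From low to high coordinate they are Ly9 (171588624 to 171607410, minus strand), Slamf7 (171632403 to 171653035, minus), Cd48 (171682009 to 171705258, plus), Slamf1 (171767127 to 171801184, plus), Cd84 (171839697 to 171890718, plus) and Slamf6 (171917515 to 171953170, plus). The only other gene between the outermost of these that had enough counts to be tested, Gm10521, passed the test in no comparison. Sh2d2a lies on chromosome 3 (87846755 to 87855722, plus) and Sh2d1a on chromosome X (42502453 to 42529330, plus).

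The libraries held between 24513124 and 75292019 estimated counts. Foxp3, the defining transcription factor of Treg, followed the sort: it averaged 1049 ± 55.4 (CCl4) and 972 ± 64.4 (control) CPM in liver Treg, against 0.976 ± 0.245 (CCl4) and 2.26 ± 0.912 (control) in liver Tconv (SD, n = 5 and 3). CPM are estimated counts divided by the library total, scaled by the TMM method, so that libraries of different depth can be compared. Summed levels of marker lists, and levels of genes not tested, were divided by the library total without the TMM scaling. Some libraries stood apart in Fos, an early gene of cell activation. Spleen Treg controls 2 and 3 had 25.1 and 22.6 CPM of Fos and spleen Tconv controls 2 and 3 had 26.4 and 19.4 CPM, while control 1 had 842 CPM in spleen Treg and 804 CPM in spleen Tconv. The comparisons that use the spleen controls were therefore also computed without these 4 libraries. This covered the members, the transcript shares, the partner genes and the control libraries alone. Each lost call of a member, a partner gene or a transcript share is marked where it is first given. Counts of called genes and the calls of marker lists carry no such mark. With them left out, each spleen control group is 1 library, assumed to vary like the other groups. Transcripts of other cells were also present: the summed level of 8 hepatocyte transcripts had a median of 200.5 (CCl4) and 139.7 (control) CPM in liver Treg, and of 29.3 (CCl4) and 7.82 (control) CPM in spleen Treg. In bulk RNA of sorted cells, fewer cells of a type and less RNA per cell cannot be told apart.

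All 8 genes had enough counts to be tested, and as levels per length (TPM, the deposited measure, averaged over the 32 libraries) they spanned a wide range. Cd48 was at 422 TPM, Slamf6 at 312 TPM, Sh2d2a at 308 TPM and Sh2d1a at 162 TPM. Ly9 followed at 113 TPM, Cd84 at 92.9 TPM, Slamf1 at 76.5 TPM and Slamf7 at 17.2 TPM. Cd48 stood at the 97.7th percentile of the genes tested and Slamf7 at the 58.6th. The ratio between the highest and the lowest of the 8 group means was 13.4 for Slamf7 and 5.25 for Slamf1, but 1.23 for Cd84, so the genes of a single cluster differed widely in how much they varied.

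**Figure D1:**
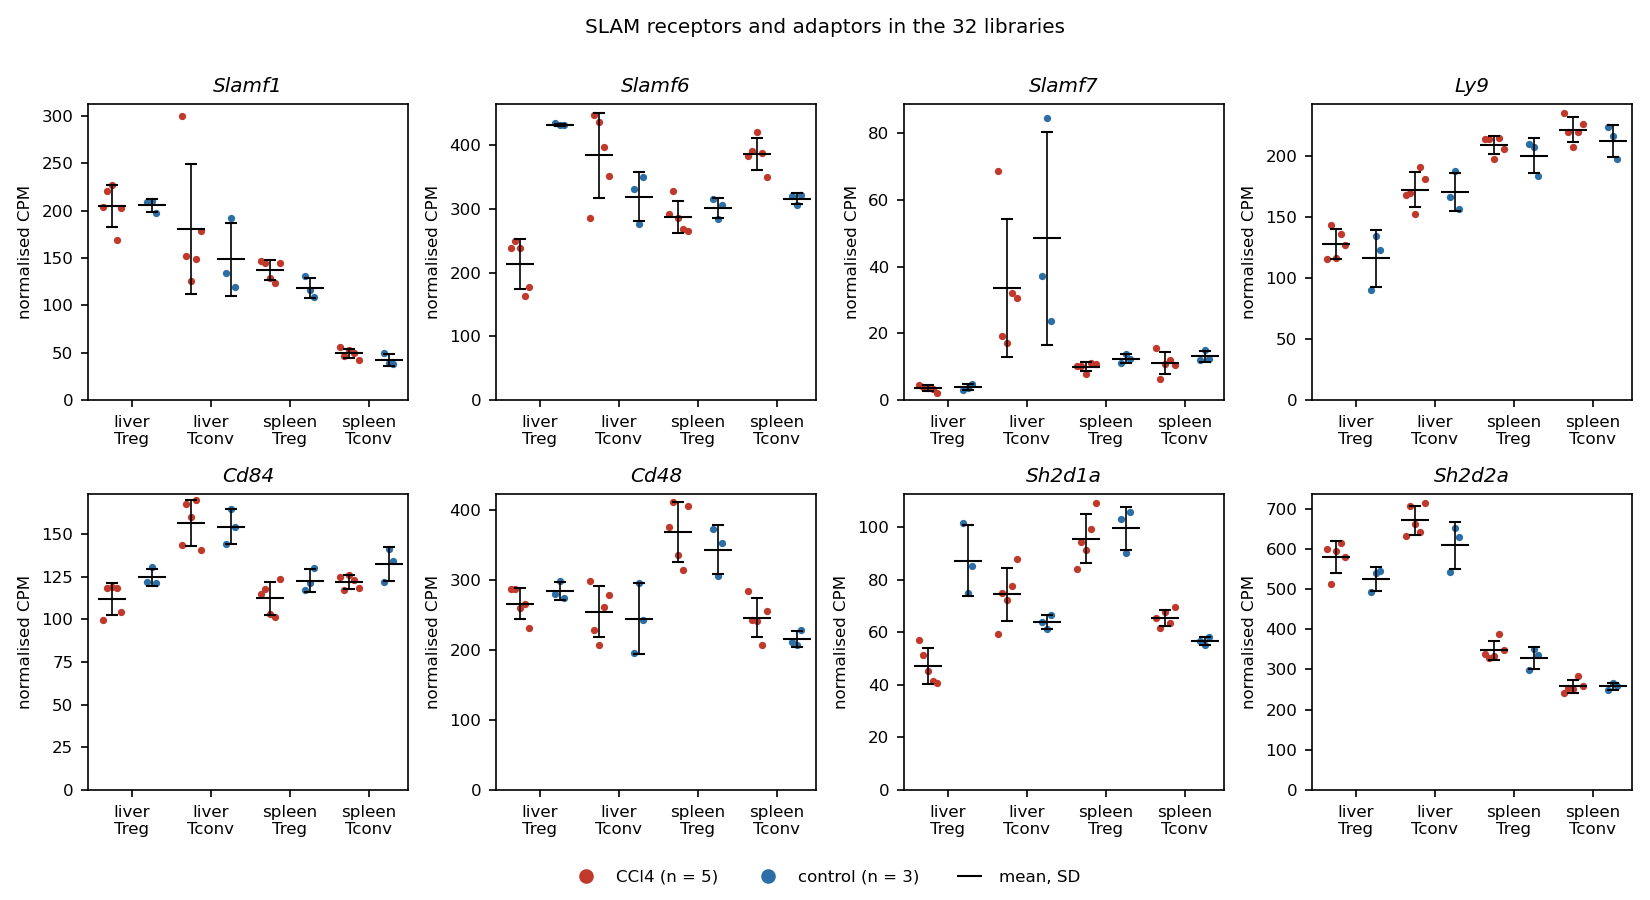
Level of each gene in every library, in CPM (vertical axes, from 0), for CCl4 (red, n = 5) and control (blue, n = 3) libraries of the 4 sorted populations; black marks are the mean and SD. Slamf6 sits between 163 and 249 CPM in CCl4 liver Treg, below the 431 to 434 CPM of control liver Treg, and Slamf7 exceeds 17 CPM in liver Tconv alone.

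Slamf1, the founding member of the family (CD150), averaged 119 ± 14.0 (CCl4) and 118 ± 3.02 (control) TPM in liver Treg, and 93.6 ± 36.8 (CCl4) and 75.9 ± 19.2 (control) TPM in liver Tconv. In spleen it averaged 78.9 ± 4.90 (CCl4) and 68.7 ± 4.27 (control) TPM in Treg, and 26.4 ± 3.19 (CCl4) and 22.8 ± 2.17 (control) TPM in Tconv. Both spleen Tconv groups lay below all other libraries, and neighbouring groups among the other 6 overlapped.

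Slamf6 (Ly108), which in mice shapes NKT cell and follicular helper responses, averaged 222 ± 45.7 (CCl4) and 432 ± 17.9 (control) TPM in liver Treg, and 341 ± 55.6 (CCl4) and 275 ± 23.9 (control) TPM in liver Tconv. Its levels in spleen were 277.5 ± 29.0 (CCl4) and 313 ± 10.4 (control) TPM in Treg, and 349 ± 25.8 (CCl4) and 320.4 ± 16.4 (control) TPM in Tconv. Control liver Treg were thus the highest group, clear of the next, and CCl4 liver Treg the lowest; all neighbours between them overlapped.

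Slamf7 (CRACC), known from natural killer cells, plasma cells and cytotoxic T cells, averaged 3.57 ± 0.753 (CCl4) and 4.80 ± 0.600 (control) TPM in liver Treg, and 35.7 ± 23.7 (CCl4) and 48.0 ± 30.2 (control) TPM in liver Tconv. In spleen it averaged 10.9 ± 1.59 (CCl4) and 14.6 ± 1.95 (control) TPM in Treg, and 11.4 ± 3.12 (CCl4) and 13.6 ± 2.35 (control) TPM in Tconv. The order was liver Tconv, then both spleen populations, then liver Treg, with no overlap between these 3 tiers. Within liver Treg the TPM of the CCl4 libraries lay just below those of the control libraries, while their CPM overlapped.

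Ly9 (CD229) averaged 86.8 ± 7.51 (CCl4) and 77.7 ± 16.9 (control) TPM in liver Treg, and 101 ± 9.59 (CCl4) and 99.4 ± 8.14 (control) TPM in liver Tconv. Spleen levels were 136 ± 6.09 (CCl4) and 131 ± 11.9 (control) TPM in Treg, and 134 ± 7.47 (CCl4) and 134 ± 6.75 (control) TPM in Tconv. The 4 spleen groups overlapped one another and lay above the 4 liver groups.

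Cd84, an adhesion receptor of follicular helper T cells, averaged 86.1 ± 7.86 (CCl4) and 92.3 ± 10.8 (control) TPM in liver Treg, and 104 ± 8.07 (CCl4) and 102 ± 8.83 (control) TPM in liver Tconv. Spleen levels were 84.5 ± 4.74 (CCl4) and 95.0 ± 5.25 (control) TPM in Treg, and 85.6 ± 7.24 (CCl4) and 101 ± 13.4 (control) TPM in Tconv. Every group overlapped its neighbours in the order of means.

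Cd48 averaged 427 ± 34.7 (CCl4) and 473 ± 26.0 (control) TPM in liver Treg, and 350.3 ± 59.5 (CCl4) and 349.6 ± 75.3 (control) TPM in liver Tconv. In spleen it averaged 568.2 ± 56.3 (CCl4) and 527 ± 22.9 (control) TPM in Treg, and 350.0 ± 29.6 (CCl4) and 325 ± 27.9 (control) TPM in Tconv. Treg groups of both organs ranked above all Tconv groups by mean, and neighbours overlapped.

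Sh2d1a, which codes for SAP, averaged 113 ± 15.9 (CCl4) and 222 ± 35.6 (control) TPM in liver Treg, and 149.8 ± 20.3 (CCl4) and 137 ± 1.88 (control) TPM in liver Tconv. Spleen levels were 216 ± 17.6 (CCl4) and 220.2 ± 7.46 (control) TPM in Treg, and 137 ± 7.75 (CCl4) and 126 ± 5.63 (control) TPM in Tconv. Of the 4 Treg groups, 3 lay above every Tconv library, and CCl4 liver Treg had the lowest mean of all 8 groups, overlapping control spleen Tconv.

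Sh2d2a averaged 442 ± 35.1 (CCl4) and 393 ± 26.3 (control) TPM in liver Treg, and 442 ± 23.7 (CCl4) and 396 ± 36.0 (control) TPM in liver Tconv. Spleen levels were 233 ± 19.9 (CCl4) and 212 ± 20.3 (control) TPM in Treg, and 158 ± 15.5 (CCl4) and 156 ± 5.44 (control) TPM in Tconv. The order was liver, then spleen Treg, then spleen Tconv, without overlap between these tiers.

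The first comparison asked how the genes differed between CCl4 and control mice within each population. In liver Treg, Slamf6 and Sh2d1a, a receptor and the adaptor it recruits, fell together to about the same degree, and none of the other 6 genes passed the test. Slamf6 was at 239, 249, 238, 163 and 178 CPM in CCl4 liver Treg, against 434, 431 and 431 CPM in control liver Treg. Sh2d1a was at 57.1, 51.3, 45.4, 41.3 and 40.8 CPM in CCl4 liver Treg, against 102, 74.9 and 85.1 CPM in control liver Treg. For both genes every CCl4 library was below every control library. The log2 fold change was -1.02 (SE 0.12, adjusted p = 4.83e-07) for Slamf6 and -0.88 (SE 0.11, adjusted p = 8.95e-07) for Sh2d1a, by edgeR's quasi-likelihood F test with Benjamini-Hochberg adjustment over 17174 genes. Across all genes tested, 14.9% were called at an adjusted p under 0.05 in this comparison and 7.34% were called lower.

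Other markers in the same liver Treg libraries were compared as well. Of 5 T cell markers 1 rose and 2 fell, and of 5 Treg markers 1 rose and 0 fell. The Treg markers summed to 6204 to 6419 CPM in CCl4 and 5114 to 5408 CPM in control liver Treg, without overlap. Of 8 NKT-like markers 1 rose and 0 fell, and of 7 dendritic markers 1 rose and 0 fell. Of 12 myeloid and Kupffer markers 0 rose and 1 fell. Of 8 follicular helper markers 2 rose and 1 fell, with sums of 2264 to 2733 CPM in CCl4 and 1900.3 to 2198 CPM in control liver Treg. The 8 hepatocyte markers, none of them called, summed to 162 to 528 CPM in CCl4 and 135 to 211 CPM in control liver Treg. The 4 plasma cell markers tested, of which 1 fell, belong to a list that summed to 18.1 to 59.0 CPM in CCl4 and 28.2 to 78.9 CPM in control liver Treg. The part of these shifts in the Slamf6 and Sh2d1a values was not tested.

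The remaining receptors differed less in liver Treg. Cd84 was at 99.7, 119, 119, 118 and 105 CPM in CCl4 liver Treg, against 122, 131 and 121 CPM in control liver Treg. These ranges did not overlap, which held for 19.1% of all genes tested in this comparison, yet the log2 fold change of -0.15 (SE 0.08, adjusted p = 0.203) did not pass the test. The log2 fold change was -0.01 (SE 0.18) for Slamf1, -0.13 (SE 0.37) for Slamf7, 0.14 (SE 0.10) for Ly9, -0.09 (SE 0.12) for Cd48 and 0.14 (SE 0.07) for Sh2d2a, with adjusted p-values between 0.206 and 0.993. The median log2 fold change of the 8 genes was -0.11, beside -0.00059 for all genes tested.

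In the other 3 populations none of the 8 genes was called. The share of all genes called was 0.326% in liver Tconv, 1.18% in spleen Treg and 1.07% in spleen Tconv. Slamf6 was at 286, 448, 436, 397 and 352 CPM in CCl4 liver Tconv, against 332, 277 and 349 CPM in control liver Tconv, and these ranges overlapped (log2 fold change 0.27, SE 0.12, adjusted p = 0.361). In spleen Tconv both Slamf6 and Sh2d1a lay higher in every CCl4 library than in every control library. There Slamf6 was at 383, 391, 421, 387 and 351 CPM in CCl4 libraries, against 319.5, 306 and 322 CPM in control libraries, a log2 fold change of 0.29 (SE 0.12) with an adjusted p of 0.266. Sh2d1a was at 65.4, 61.7, 67.7, 63.5 and 69.5 CPM in CCl4 spleen Tconv, against 56.7, 55.1 and 58.2 CPM in control spleen Tconv, a log2 fold change of 0.21 (SE 0.11) with an adjusted p of 0.393. A lack of overlap was seen for 8.8% of all genes tested in that population. In spleen Treg Slamf7 was lower in every CCl4 library than in every control library, by a narrow margin (log2 fold change -0.31, SE 0.35, adjusted p = 0.764), beside 10.9% of all genes without overlap there.

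**Figure D2:**
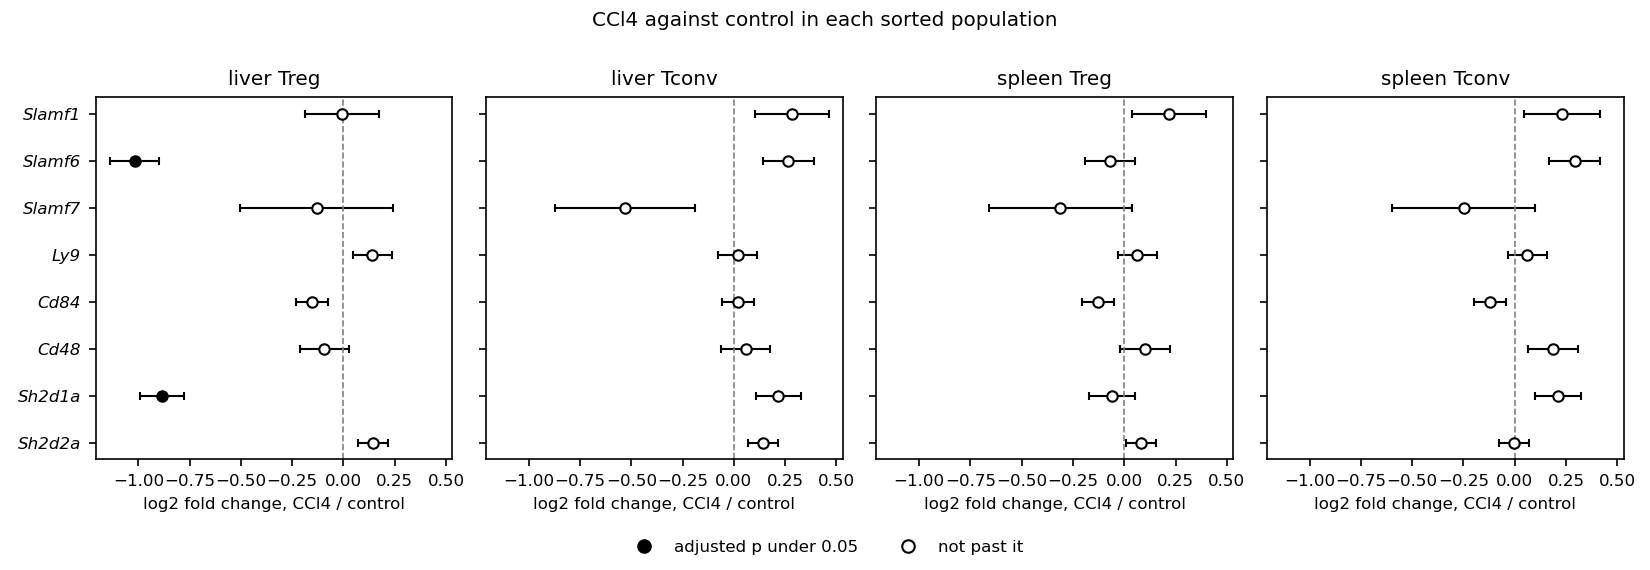
Log2 fold change of CCl4 over control for each gene (horizontal axis) in the 4 sorted populations, with its standard error; filled points passed an adjusted p under 0.05. The filled points are Slamf6 at -1.02 and Sh2d1a at -0.88 in liver Treg.

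The difference between effects was tested in the same fit. The CCl4 effect on Slamf6 in liver Treg minus that in liver Tconv was -1.28 (SE 0.18, adjusted p = 3.02e-05, log2 scale), and for Sh2d1a it was -1.10 (SE 0.16, adjusted p = 4.92e-05). Of all genes tested, 3.65% were called in this contrast and 1.76% were called lower. The effect in liver Treg minus that in spleen Treg was -0.95 (SE 0.17, adjusted p = 0.00114) for Slamf6 and -0.82 (SE 0.16, adjusted p = 0.00163) for Sh2d1a, beside 5.49% of all genes called and 3.46% called lower. This second difference depended on the spleen controls: without spleen controls 2 and 3 it was -0.89 for Slamf6 (adjusted p = 0.0576) and -0.78 for Sh2d1a (adjusted p = 0.0604), so that none of the 8 genes was called. Over all alternatives tried, the adjusted p of this difference ran from 4.32e-06 to 0.0576 for Slamf6 and from 1.91e-05 to 0.0604 for Sh2d1a. No difference in the CCl4 effect was called for the other 6 genes.

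The second comparison asked how the genes differed between liver and spleen. Slamf1 and Sh2d2a were higher in liver in both cell types, Ly9 was lower in liver in both, and Slamf7 ran in opposite directions in Treg and Tconv. In Treg, 2 of the 8 genes were higher in liver and 4 lower, beside 30.1% and 30.5% of all genes tested. For 5 of the 8, organs did not overlap within either treatment in Treg, beside 29% of all genes tested. Restricting the fit to genes averaging 5 CPM or more moved the scaling, and then 4 of the 8 were higher in liver Treg and 4 lower. In Tconv, 4 were higher in liver and 1 lower, beside 27.2% and 27.7%, and 5 of the 8 were without overlap, beside 25.7%. With the minimum of 5 CPM, 6 were higher in liver Tconv and 1 lower. These values average control and CCl4 libraries with equal weight, and most genes tested differed between organs (60.6% in Treg and 55% in Tconv), so the counts by themselves do not set the 8 genes apart.

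Slamf7 was at 4.47, 3.96, 3.74, 3.25 and 2.17 CPM in CCl4 liver Treg, against 10.2, 10.1, 7.74, 11.2 and 10.8 CPM in CCl4 spleen Treg. Control liver Treg had 3.11, 3.74 and 4.81 CPM, against 11.2, 13.8 and 12.2 CPM in control spleen Treg. Every liver Treg library was below every spleen Treg library, and the log2 fold change was -1.59 (SE 0.26, adjusted p = 6.56e-06, edgeR quasi-likelihood). In Tconv the order was turned round. Slamf7 was at 68.8, 19.2, 17.2, 32.1 and 30.7 CPM in CCl4 liver Tconv, against 15.6, 6.27, 10.8, 11.99 and 10.5 CPM in CCl4 spleen Tconv. Control liver Tconv had 37.1, 84.6 and 23.7 CPM, against 12.1, 14.9 and 12.3 CPM in control spleen Tconv. Here every liver library was above every spleen library, with a log2 fold change of 1.75 (SE 0.25, adjusted p = 1.13e-06). The spread within liver Tconv was wide, with CCl4 library 1 and control library 2 the highest of their groups.

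Slamf1 was at 204, 220.5, 227, 169.5 and 203 CPM in CCl4 liver Treg, against 147, 144, 129, 124 and 145 CPM in CCl4 spleen Treg. Control liver Treg had 209, 209.8 and 198 CPM, against 131, 116 and 109 CPM in control spleen Treg. The ranges did not overlap, and the log2 fold change was 0.68 (SE 0.13, adjusted p = 3.70e-05). The difference was larger in Tconv. There Slamf1 was at 299.5, 152, 126, 148 and 178 CPM in CCl4 liver Tconv, against 55.5, 46.1, 52.8, 49.3 and 42.7 CPM in CCl4 spleen Tconv. Control liver Tconv had 134, 192 and 119 CPM, against 49.2, 39.0 and 37.7 CPM in control spleen Tconv. The log2 fold change was 1.85 (SE 0.13, adjusted p = 1.88e-12), and the same CCl4 library that was highest for Slamf7 was also highest for Slamf1.

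Sh2d2a, the TSAd adaptor, gave the smallest adjusted p among the 8 genes in the liver to spleen comparison of both cell types. It ranged from 492 to 614 CPM in liver Treg, against 297 to 389 CPM in spleen Treg, a log2 fold change of 0.71 (SE 0.05, adjusted p = 2.15e-12). In Tconv it ranged from 543 to 713 CPM in liver, against 242 to 284 CPM in spleen, a log2 fold change of 1.31 (SE 0.05, adjusted p = 4.08e-18). No library of either cell type overlapped between the organs.

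Ly9 fell in liver relative to spleen by 0.75 on the log2 scale in Treg (SE 0.07, adjusted p = 1.50e-10). In Tconv it fell by 0.34 (SE 0.07, adjusted p = 9.02e-05). Cd48 fell by 0.37 in Treg (SE 0.09, adjusted p = 0.000446), whereas its log2 difference in Tconv was 0.12 (SE 0.08, adjusted p = 0.259). Cd84 had a log2 fold change of 0.01 in Treg (SE 0.06, adjusted p = 0.894) and rose in liver Tconv, by 0.29 (SE 0.06, adjusted p = 5.80e-05). Averaged over treatments, Ly9, Slamf7 and Cd48 were thus the receptor genes called lower in liver Treg than in spleen Treg. In Tconv Ly9 was the only 1 called lower in liver. By the same edgeR test Cd48 in Treg passed in CCl4 libraries (-0.47, SE 0.10, adjusted p = 0.000407) but not in control libraries (-0.27, SE 0.13, adjusted p = 0.103). The 5 T cell genes Cd3e, Cd3g, Cd4, Trbc1 and Trbc2 were also all lower in liver than in spleen Treg (median log2 fold change -0.603), and 4 of them were lower in liver than in spleen Tconv (median -0.226). The summed level of these 5 genes ran from 2742 to 3098 CPM in CCl4 liver Treg and from 2854 to 2946 CPM in control liver Treg. It ran from 4200.2 to 4817 CPM in CCl4 spleen Treg and from 4278 to 4750.2 CPM in control spleen Treg. Of 12 myeloid and Kupffer markers 6 were lower and 2 higher in liver than in spleen Treg. Within CCl4 libraries 8 of these 12 were lower and 2 higher, and within control libraries 2 were lower and 3 higher. Of 10 B cell markers 3 were lower and 1 higher, and of 7 dendritic markers 0 were lower and 3 higher. The part of these shifts in the Ly9, Cd48 and Slamf7 values was not tested.

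The averaged liver to spleen values of Slamf6 and Sh2d1a in Treg joined unlike treatments. Slamf6 had an averaged log2 fold change of 0.04 (SE 0.09, adjusted p = 0.685), but it rose in liver in the control libraries (0.52, SE 0.14, adjusted p = 0.00329) and fell in liver in the CCl4 libraries (-0.43, SE 0.11, adjusted p = 0.00125). Without spleen controls 2 and 3 the control value was 0.46 and its call was lost (adjusted p = 0.140). Sh2d1a fell by 0.61 on average (SE 0.08, adjusted p = 1.45e-07), with -1.02 (SE 0.10, adjusted p = 7.45e-10) in CCl4 libraries and -0.19 (SE 0.12, adjusted p = 0.216) in control libraries. In Tconv the averaged log2 difference between liver and spleen was 0.0029 for Slamf6 (SE 0.09, adjusted p = 0.991) and 0.18 for Sh2d1a (SE 0.08, adjusted p = 0.0541).

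The liver to spleen difference itself differed between Treg and Tconv for 7 of the 8 genes, all lower in Treg than in Tconv, beside 19.3% of all genes tested and 12.3% called lower. The difference of differences was -3.34 for Slamf7 (SE 0.36, adjusted p = 1.10e-07), -1.16 for Slamf1 (SE 0.18, adjusted p = 2.40e-05) and -0.78 for Sh2d1a (SE 0.11, adjusted p = 6.49e-06), on the log2 scale. It was -0.60 for Sh2d2a (SE 0.07), -0.49 for Cd48 (SE 0.12), -0.41 for Ly9 (SE 0.09) and -0.28 for Cd84 (SE 0.08), with adjusted p-values between 6.43e-07 and 0.0107. Slamf6 alone was not called, at 0.04 (SE 0.12, adjusted p = 0.883). Without spleen controls 2 and 3 the call of Cd84 was lost (-0.30, adjusted p = 0.0644) and the other 6 passed. The median over the 8 genes was -0.54, beside -0.0304 for all genes tested. Of the 5 T cell genes 4 were also lower in this contrast (median log2 value -0.401), among them Trbc1 at -0.51 (SE 0.08, adjusted p = 3.24e-05) and Trbc2 at -0.63 (SE 0.08, adjusted p = 2.13e-06). The part of that shift in the members' values was not tested. The same Treg libraries enter this contrast and the organ comparison in Treg, and the same Tconv libraries enter it and the organ comparison in Tconv. Its values are therefore not independent of those comparisons.

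**Figure D3:**
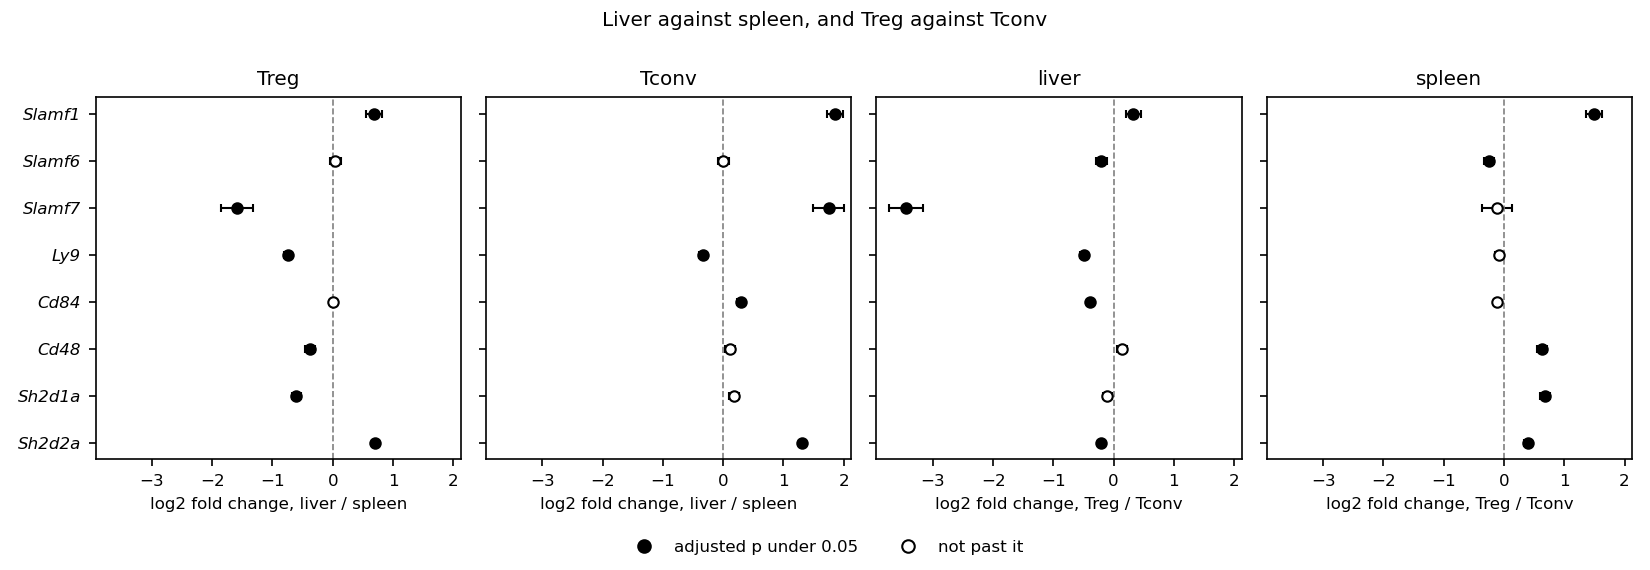
Log2 fold change of liver over spleen in Treg and in Tconv (first pair of panels) and of Treg over Tconv in liver and in spleen (second pair), averaged over treatments, with standard errors; filled points passed an adjusted p under 0.05. Slamf7 lies at -1.59 in Treg and 1.75 in Tconv for liver over spleen, and at -3.45 for Treg over Tconv in liver.

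Markers of other cells also differed between liver and spleen Tconv, in both directions. Of 12 myeloid and Kupffer markers 2 were higher and 5 lower in liver Tconv. Of 10 B cell markers 2 were higher and 1 lower, and of 8 follicular helper markers 3 were higher and 2 lower. Of 2 CD8 T cell markers 0 were higher and 1 lower. All 8 hepatocyte markers were higher in liver than in spleen Tconv (median log2 fold change 8.43), with sums of 156 to 504 CPM in CCl4 and 131 to 329 CPM in control liver Tconv, against 5.05 to 10.9 CPM in CCl4 and 2.72 to 5.03 CPM in control spleen Tconv. Of 7 dendritic cell markers tested 5 were higher in liver Tconv and none lower; the list summed to 28.6 to 38.6 CPM in CCl4 and 25.6 to 41.2 CPM in control liver Tconv, against 14.4 to 18.5 CPM in CCl4 and 16.9 to 20.7 CPM in control spleen Tconv. Averaged over treatments, all 8 markers of an NKT-like list were higher in liver than in spleen Tconv, but within CCl4 libraries 4 were called higher and within control libraries 7. Zbtb16, the transcription factor PLZF that defines NKT cells in mice, averaged 3.78 ± 1.82 CPM in CCl4 liver Tconv, against 2.59 ± 0.881 CPM in CCl4 spleen Tconv, and 25.0 ± 10.7 CPM in control liver Tconv, against 3.78 ± 0.508 CPM in control spleen Tconv. Klrb1c of the same list was at 1.83 ± 0.754 CPM in CCl4 liver Tconv, against 2.99 ± 1.20 CPM in CCl4 spleen Tconv, and at 8.10 ± 1.95 CPM in control liver Tconv, against 0.920 ± 0.304 CPM in control spleen Tconv. The summed level of the list ran from 663 to 1401 CPM in CCl4 liver Tconv and from 798 to 1443 CPM in control liver Tconv, against 281 to 476 CPM in CCl4 spleen Tconv and 258 to 279 CPM in control spleen Tconv. Of the 5 plasma cell markers 4 could be tested and all 4 were higher in liver than in spleen Tconv on average, with 1 called within CCl4 libraries and 3 within control libraries. The summed level of the plasma cell list ran from 8.15 to 23.8 CPM in CCl4 liver Tconv and from 59.0 to 85.1 CPM in control liver Tconv, against 1.81 to 19.5 CPM in CCl4 spleen Tconv and 2.42 to 3.32 CPM in control spleen Tconv. The part of these cells in the Slamf7, Slamf1 and Sh2d2a values was not tested. The NKT-like list holds Il2rb, which Treg also express, and its sum was as high in Treg, at 1363 to 1772 CPM in CCl4 liver Treg and 968 to 1331 CPM in control liver Treg, although Klra1 of the same list was at 0 in all of those libraries. Natural killer cell markers were low: the 5 listed summed to 12.05 to 43.3 CPM in CCl4 liver Tconv and 6.70 to 8.93 CPM in control liver Tconv, and to 0.143 to 0.955 CPM in CCl4 liver Treg and 0.928 to 2.34 CPM in control liver Treg, where Ncr1, Klra8 and Klra4 were at 0.

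The third comparison set Treg against Tconv of the same organ. In liver, Slamf7 was by far the most different of the 8 genes, and in spleen it was Slamf1. In liver 1 of the 8 genes was higher in Treg and 5 were lower, beside 24.7% and 27.1% of all genes tested (51.8% in either direction), and 3 of the 8 were without overlap within either treatment, beside 23.5%. The split was 2 higher and 4 lower with the minimum of 5 CPM, and 0 higher and 4 lower with effective length offsets. In spleen 4 were higher and 1 lower, beside 19.4% and 20.2% (39.7% in either direction), and 4 were without overlap, beside 19.6%; with the minimum of 5 CPM the split was 4 higher and 0 lower.

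Slamf7 had a log2 fold change of -3.45 in liver (SE 0.28, adjusted p = 1.63e-11), and from the values above every liver Treg library was below every liver Tconv library. The value was -3.65 (SE 0.44) in control libraries and -3.25 (SE 0.34) in CCl4 libraries. In spleen it was -0.11 (SE 0.25, adjusted p = 0.785), with ranges that overlapped. Of the NKT-like list, 7 of the 8 markers were lower in liver Treg than in liver Tconv: Zbtb16 averaged 0.807 ± 0.515 CPM in CCl4 liver Treg and 3.78 ± 1.82 CPM in CCl4 liver Tconv, and 0.760 ± 0.762 CPM in control liver Treg and 25.0 ± 10.7 CPM in control liver Tconv. Its part in the Slamf7 difference was not tested. Between CCl4 and control liver Tconv, Zbtb16 fell by 2.73 on the log2 scale (SE 0.61, adjusted p = 0.0409), while Slamf7 had a log2 fold change of -0.53 (SE 0.34, adjusted p = 0.535) there.

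Slamf1 was higher in Treg than in Tconv of the spleen by 1.49 on the log2 scale (SE 0.13, adjusted p = 1.25e-10), with no overlap between libraries. In liver its libraries overlapped and the log2 fold change averaged over treatments was 0.33 (SE 0.13, adjusted p = 0.0326). By the same edgeR test neither treatment alone passed in liver. The Slamf1 value there was 0.47 (SE 0.20, adjusted p = 0.0697) in control libraries and 0.18 (SE 0.16, adjusted p = 0.365) in CCl4 libraries. Cd48 and both adaptors were also higher in spleen Treg than in spleen Tconv, by 0.63 for Cd48 (SE 0.09, adjusted p = 5.77e-07), 0.68 for Sh2d1a (SE 0.08, adjusted p = 3.05e-08) and 0.39 for Sh2d2a (SE 0.05, adjusted p = 3.82e-07). B cell markers moved with these values: 6 of 10 were higher in spleen Treg than in spleen Tconv and none lower (median log2 fold change 1.09). The 10 summed to 44.5 to 74.0 CPM in CCl4 and 48.8 to 69.9 CPM in control spleen Treg. In spleen Tconv they summed to 20.5 to 29.7 CPM in CCl4 and 17.95 to 26.4 CPM in control libraries. Of 12 myeloid and Kupffer markers 3 were higher and 0 lower, and of 7 dendritic markers 3 were higher and 1 lower. Of 4 plasma cell markers 2 were higher and 0 lower, and of 8 follicular helper markers 4 were higher and 2 lower. The myeloid list summed to 69.5 to 131 CPM in CCl4 and 24.2 to 31.6 CPM in control spleen Treg. In spleen Tconv it summed to 21.1 to 45.5 CPM in CCl4 and 14.2 to 18.8 CPM in control libraries. The part of these cells in the Slamf1, Cd48 and adaptor values was not tested. Cd48 differed by 0.14 in liver (SE 0.08, adjusted p = 0.175), and Sh2d2a was lower in liver Treg than in liver Tconv, by -0.21 (SE 0.05, adjusted p = 0.00108).

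Ly9 and Cd84 were lower in liver Treg than in liver Tconv in every library of the same treatment. The log2 fold change was -0.49 for Ly9 (SE 0.07, adjusted p = 3.85e-07) and -0.39 for Cd84 (SE 0.06, adjusted p = 6.05e-07). All 5 T cell genes were lower in liver Treg as well (median log2 fold change -0.51), and their sum ran from 2742 to 3098 CPM in CCl4 and 2854 to 2946 CPM in control liver Treg, against 3297 to 4256 CPM in CCl4 and 3407 to 3679 CPM in control liver Tconv. The part of that shift in the Ly9 and Cd84 values was not tested. In spleen the log2 fold change was -0.08 for Ly9 (SE 0.07, adjusted p = 0.352) and -0.11 for Cd84 (SE 0.06, adjusted p = 0.103).

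Slamf6 and Sh2d1a again had opposite values in the treatments within liver. In control livers both were higher in Treg than in Tconv, by 0.44 for Slamf6 (SE 0.14, adjusted p = 0.0142) and 0.45 for Sh2d1a (SE 0.12, adjusted p = 0.00577). In CCl4 libraries both were lower in liver Treg, with -0.85 for Slamf6 (SE 0.11, adjusted p = 1.42e-07) and -0.66 for Sh2d1a (SE 0.10, adjusted p = 1.82e-06). Averaged over treatments, Slamf6 was at -0.20 (SE 0.09, adjusted p = 0.0499) and Sh2d1a at -0.11 (SE 0.08, adjusted p = 0.270), values that describe neither treatment. In spleen the averaged log2 fold change of Slamf6 was -0.25 (SE 0.09, adjusted p = 0.0246), made up of -0.43 (SE 0.11, adjusted p = 0.00234) in CCl4 libraries and -0.07 (SE 0.14, adjusted p = 0.810) in control libraries. That averaged call was lost without spleen controls 2 and 3 (-0.22, adjusted p = 0.286). The number of genes called between liver Treg and liver Tconv moved from 4 to 7 when single libraries were left out, and the Slamf1 and Slamf6 calls were the ones most often lost.

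Transcript shares were examined for the 4 genes with at least 2 transcripts of 10% or more of the gene's TPM. Slamf6 showed the clearest pattern: the share of Slamf6-204, the transcript that codes for motif 1 alone, was lower in liver than in spleen in both cell types. In Treg it held 46.1 ± 1.75% of Slamf6 TPM in liver, against 53.7 ± 1.43% in spleen (SD, n = 8 each; two-sided exact permutation test, adjusted p = 0.00249). In Tconv it held 42.7 ± 3.63% in liver, against 53.0 ± 3.24% in spleen (SD, n = 8 each; two-sided exact permutation test, adjusted p = 0.00249). The adjustment covers 32 tests, 4 genes in 8 comparisons.

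The share did not follow the CCl4 effect on the gene. In liver Treg Slamf6-204 was at 103 ± 23.2 TPM in CCl4 libraries and 199.6 ± 7.83 TPM in control libraries, yet its share was 46.0 ± 2.12% and 46.2 ± 1.28% (SD, n = 5 and 3; exact permutation test, adjusted p = 0.951). Slamf6-201, with both motifs, was at 56.8 ± 10.01 TPM in CCl4 and 121 ± 5.00 TPM in control liver Treg, and Slamf6-207, also with both, at 16.6 ± 2.86 TPM in CCl4 and 32.3 ± 1.17 TPM in control liver Treg. All 3 transcripts were thus lower by a similar ratio in CCl4 liver Treg. These shares depend on how the quantifier divides reads between overlapping transcripts. Slamf6-204 is annotated as 984 bases without untranslated regions, which raises its TPM per read, and by estimated counts it held 23.4% of the gene in CCl4 and 21.2% in control liver Treg.

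**Figure D4:**
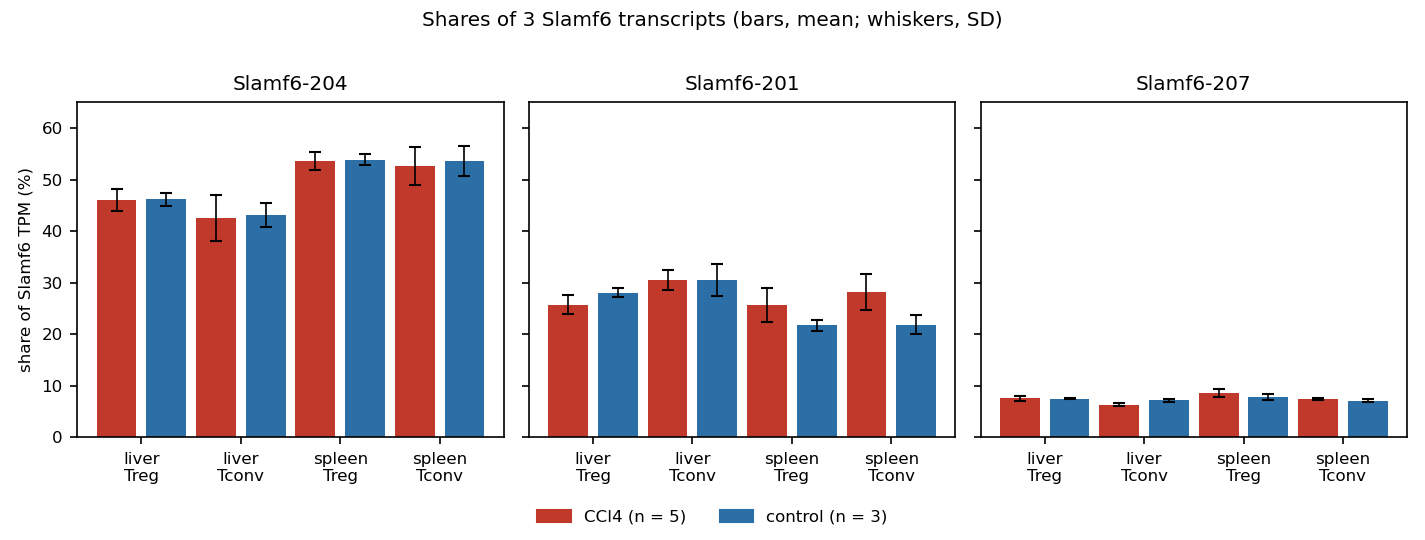
Share of Slamf6 TPM held by 3 coding transcripts (vertical axis, percent, from 0) in CCl4 (red, n = 5) and control (blue, n = 3) libraries of each population; bars are means and whiskers SD. The share of Slamf6-204 is between 42.4% and 46.2% in liver groups and between 52.6% and 53.9% in spleen groups, with CCl4 and control alike in height within each population.

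Of the other genes, Cd84-205 held 34.7 ± 1.97% of Cd84 TPM in liver Treg, against 38.7 ± 1.67% in liver Tconv (SD, n = 8 each; exact permutation test, adjusted p = 0.00995). Sh2d2a-202 held 68.9 ± 1.94% of Sh2d2a TPM in liver Tconv, against 64.2 ± 2.61% in spleen Tconv (SD, n = 8 each; exact permutation test, adjusted p = 0.00995). The Sh2d2a-202 share was also higher in spleen Treg than in spleen Tconv, at 68.5 ± 2.65% against 64.2 ± 2.61% (SD, n = 8 each; exact permutation test, adjusted p = 0.0428), a call lost when estimated counts replaced TPM and also without spleen controls 2 and 3 (adjusted p = 0.0554). Slamf7-201 held 66.45 ± 12.4% of Slamf7 TPM in liver Treg, against 49.15 ± 12.98% in liver Tconv, which did not pass (SD, n = 8 each; exact permutation test, adjusted p = 0.0572). With 5 libraries against 3 the smallest unadjusted p of this exact test is 0.0179, which in most cases cannot pass after adjustment over 32 tests, so the CCl4 comparisons of shares say little. Cd84-205 reached that smallest p in spleen Treg, at 37.1 ± 1.27% in CCl4 and 32.3 ± 3.25% in control libraries (SD, n = 5 and 3; exact permutation test, adjusted p = 0.0816). With 8 against 8 the smallest p is 7.77e-05.

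The other parts of the pathway came from a list of 19 genes, of which 17 had enough counts to be tested. Between CCl4 and control liver Treg 1 of the 17 was called lower and 1 higher. Of all genes tested, 14.9% were called there and 7.34% were called lower, so these counts by themselves do not set the list apart. Prkcq, the kinase PKC-theta downstream of SAP and Fyn, was at 198 ± 17.3 CPM in CCl4 liver Treg and 379.6 ± 18.5 CPM in control liver Treg, with a log2 fold change of -0.94 (SE 0.07, adjusted p = 4.32e-10). Its effect differed from that in liver Tconv by -0.82 (SE 0.11, adjusted p = 1.58e-05) and from that in spleen Treg by -0.77 (SE 0.11, adjusted p = 5.16e-05). Nck1, an adaptor of the actin machinery, was the other gene of the list whose effect differed between liver Treg and spleen Treg, by 0.37 (SE 0.11, adjusted p = 0.0488), a call lost without spleen controls 2 and 3 (adjusted p = 0.347). Dok1, an adaptor that restrains Ras signalling, rose to 31.7 ± 6.68 CPM in CCl4 liver Treg, against 21.6 ± 0.779 CPM in control liver Treg, with a log2 fold change of 0.55 (SE 0.14, adjusted p = 0.00750). Fyn, the kinase that SAP recruits, was not called. In the other 3 populations none of the 17 was called between CCl4 and control. The share of all genes called was 0.326% in liver Tconv, 1.18% in spleen Treg and 1.07% in spleen Tconv.

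Between liver and spleen 9 of the 17 were lower and 1 higher in Treg, beside 30.5% and 30.1% of all genes tested, and 6 were lower and 3 higher in Tconv, beside 27.7% and 27.2%. Ptpn6, which codes for the phosphatase SHP-1, was lower in liver by a log2 fold change of -1.22 in Treg (SE 0.08, adjusted p = 6.10e-14), while in Tconv the value was -1.20 (SE 0.08, adjusted p = 1.03e-13). Prkcq was lower in liver than in spleen Treg by -0.84 (SE 0.05, adjusted p = 1.36e-13). Cd2, which binds Cd48, was lower in liver Treg than in spleen Treg by -0.13 (SE 0.05, adjusted p = 0.0333) and higher in liver Tconv than in spleen Tconv by 0.36 (SE 0.05, adjusted p = 1.68e-06). Between Treg and Tconv 3 of the 17 were higher and 9 lower in liver, beside 24.7% and 27.1% of all genes tested, and 5 were higher and 8 lower in spleen, beside 19.4% and 20.2%. In that comparison Prkcq had a log2 fold change of -0.92 in liver (SE 0.05, adjusted p = 1.45e-14), and Dok1 of 0.87 in spleen (SE 0.10, adjusted p = 2.56e-08).

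The family members left out of the 8 were nearly absent from these cells. Cd244a, which codes for 2B4, the other partner of Cd48, averaged 0.602 ± 0.296 (CCl4) and 0.421 ± 0.287 (control) CPM in liver Treg, and 1.44 ± 0.621 (CCl4) and 3.56 ± 3.77 (control) CPM in liver Tconv. It averaged 1.17 ± 0.526 (CCl4) and 0.847 ± 0.531 (control) CPM in spleen Treg, and 0.334 ± 0.171 (CCl4) and 0.206 ± 0.0915 (control) CPM in spleen Tconv. Like Slamf7 it was higher in liver than in spleen Tconv, by 3.11 (SE 0.46, adjusted p = 1.44e-06, log2 scale), and its difference of organ differences, Treg minus Tconv, was -4.07 (SE 0.62, adjusted p = 1.87e-05). It was lower in Treg than in Tconv of the liver by -2.16 (SE 0.43, adjusted p = 0.000112) and higher in Treg of the spleen by 1.91 (SE 0.44, adjusted p = 0.000870). Slamf8, Slamf9, Sh2d1b1 (EAT-2) and Sh2d1b2 had no library above 0.561 CPM. At these levels Slamf8 was called lower in liver than in spleen Treg, and Sh2d1b1 lower in liver than in spleen Tconv, calls that were both lost without spleen controls 2 and 3, and no fold is given.

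The genes whose log2 CPM ran most closely with each member over the 32 libraries were sought among 9283 genes that averaged 5 CPM or more. These remained after leaving out pseudogenes, ribosomal protein genes, antigen receptor segments, mitochondrial genes and predicted genes with Gm or Rik names. Those most like Slamf1 were Icos (Pearson r 0.954), Irf4 (0.954) and Gzmb (0.953), and those most like Sh2d2a were Crem (0.959), Serinc1 (0.959) and Ifngr1 (0.958). Slamf7 was most like Ctsw (0.910), Gpc1 (0.907) and Cd226 (0.894), and Ly9 most like Prmt1 (0.965), Sf3a3 (0.944) and Ppp6r1 (0.942). Slamf6 was most like Xrn2 (0.833), Foxp1 (0.827) and Ifi213 (0.825), Sh2d1a most like Tmem243 (0.855), Ahcyl2 (0.814) and Clec2i (0.809). Cd84 was most like Ifngr2 (0.878), Arid5a (0.875) and Il17re (0.870), and Cd48 most like Itm2b (0.873), Gnpda2 (0.849) and BC004004 (0.836). The points share organs, cell types and treatments, so these are descriptions of a common pattern over 8 groups, given with no test.

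Among the members themselves the highest correlations over the 32 libraries were those of Slamf1 with Sh2d2a (r 0.814), Slamf7 with Cd84 (0.707) and Cd48 with Sh2d1a (0.604). Slamf6 and Sh2d1a had an r of 0.452. When each library was taken as its deviation from its group mean, Slamf1 and Slamf7 had the highest value (0.740), followed by Slamf1 with Cd48 (0.579) and Slamf7 with Cd48 (0.568). The libraries of a group share their organ and treatment, and these values are descriptions.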

How the data were processed

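Transcript tables of 32 libraries were used. The deposited tables give estimated counts, TPM and effective lengths per transcript, from kallisto 0.44.0 on GRCm38.p6 per the submitters' processing notes, which also name bcl2fastq 2.19 and DESeq2. Libraries were made from sorted cells with the Clontech Ultra Low v4 and NexteraXT kits, per the labels' protocols; the sources used here give neither annotation release nor strand setting. Estimated counts as deposited by the authors are not whole and were rounded after summing; TPM, also deposited by the authors, were summed unchanged. Transcripts were assigned to genes with GENCODE M21: 98.59% of 118489 matched by ID, and unmatched transcripts held 0.662% to 0.799% of counts.

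Genes were filtered with filterByExpr (17174 tested), scaled by TMM (factors 0.923 to 1.06) and fitted in 1 quasi-likelihood model of the 8 groups (edgeR 4.0.16, limma 3.58.1, R 4.3.3; 24 residual degrees of freedom; common biological coefficient of variation 0.285). Contrasts were called at a Benjamini-Hochberg adjusted p under 0.05 over all genes tested; SEs were taken as the size of the log2 fold change over the root of its F value. The steps were tested on simulated data. Transcript shares used exact permutation tests in Python 3.11.15, adjusted over 32 tests. Alternatives were DESeq2 1.42.0 and its size factors, no filter, a minimum of 5 CPM, limma-voom, effective length offsets, the compared libraries alone, a block by sample number, each library left out, control or CCl4 libraries alone and, chosen after seeing the data, spleen controls 2 and 3 left out.

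All 8 genes are named in every comparison. Also named are 3 most alike genes per member and, from the partner list, the 3 called genes of largest change in a comparison and the other SLAM receptors and SAP relatives; Fyn, Cd2 and Ptpn6 were chosen after their values were seen where they fall outside this. A gene of the partner list enters the counts but is not reported here. Members and lists were chosen with earlier results of these data known.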

Additional observations from a re-analysis of the deposited data

Results flagged for a closer look

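Slamf7 in CCl4 liver Tconv had 1 library far from the others: replicate 1 was at 68.8 CPM, while the other 4 ran from 17.2 to 32.1 CPM. Of 32 groups examined in this way (8 genes in the 4 CCl4 populations), 1 had such a library, and chance gives about 1 in 20. The same library was the highest of its group for Slamf1, at 299.5 CPM.

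The effect of CCl4 differed between populations for 2 genes, by the test of the difference in the edgeR fit. Between liver Treg and liver Tconv it differed by -1.28 for Slamf6 and -1.10 for Sh2d1a (log2 scale). Between liver Treg and spleen Treg it differed by -0.95 for Slamf6 and -0.82 for Sh2d1a, calls that were lost without spleen controls 2 and 3.

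The liver to spleen difference was lower in Treg than in Tconv for 7 genes. The log2 values were -1.16 for Slamf1, -3.34 for Slamf7, -0.41 for Ly9, -0.28 for Cd84, -0.49 for Cd48, -0.78 for Sh2d1a and -0.60 for Sh2d2a. The call of Cd84 was lost without spleen controls 2 and 3, where its value was -0.30.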

How the results depend on the processing

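The fall of Slamf6 and Sh2d1a in CCl4 liver Treg passed the threshold under each of 16 alternatives, with log2 fold changes from -1.08 to -0.94 for Slamf6 and from -0.98 to -0.76 for Sh2d1a. Without spleen controls 2 and 3, 0 of the 8 genes differed in CCl4 effect between liver Treg and spleen Treg by edgeR. In control libraries alone, the same step left 2 of 5 calls between liver and spleen Treg, 3 of 5 between liver and spleen Tconv, and 3 of 4 between spleen Treg and spleen Tconv. In 4 cases a sign was reversed: Treg against Tconv in liver in control libraries alone gave 0.44 for Slamf6 and 0.45 for Sh2d1a, liver against spleen Treg in CCl4 libraries alone gave -0.43 for Slamf6, and estimated counts in place of TPM gave a Sh2d2a-202 share 4.79 percentage points higher in liver than in spleen Treg. The first 3 use fewer libraries by construction; the cause of the last was not tested. Another 80 changes of sign concerned values called under neither setting and are not listed. Without single libraries the number of genes called between liver Treg and liver Tconv ran from 4 to 7, falling to 4 without liver Treg controls 1 or 2, liver Tconv controls 1 or 3, or CCl4 liver Tconv 2, 3 or 4. Effective length offsets and the compared libraries alone also gave 4 there. A minimum of 5 CPM raised liver against spleen values by 0.158 in Treg and 0.121 in Tconv, which made 4 genes higher and 4 lower in Treg, and 6 higher and 1 lower in Tconv; Treg against Tconv then had 2 higher and 4 lower in liver, and 4 higher and 0 lower in spleen. The median correlation of same-numbered deviations was 0.0351 in CCl4 and 0.0308 in control libraries. Between libraries of unlike number it was -0.0126 in CCl4 and -0.0159 in control libraries. These small values do not settle whether sample numbers pair libraries, and Fos was low in spleen controls 2 and 3 of both cell types. The replicate block left 2 genes called in CCl4 against control liver Treg and changed no other call of a member. Slamf7 in liver Treg, at 2.17 to 4.81 CPM, has the least depth.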
